A study of Mus musculus with 50 samples.

Results

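The genes of cholesterol and fatty acid synthesis were followed across 5 populations of mouse colon cells. They are 30 named genes for the enzymes of both pathways, their transcriptional regulators and a sterol carrier, and a gene was taken where a probe set of the array was annotated to that symbol alone. This held for 29 of the 30, out of 18193 genes so represented, and Acat2 was not analysed here. A gene with several probe sets is given by the brightest one. The filter on dim genes asked for an intensity over 6.44 on the log2 scale, the median of the deposited table, on 10 or more of the 50 arrays, and 29 of the 29 passed it, as did 12883 genes in all.

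Young adult mouse colon (YAMC) cells are a polyclonal epithelial line from the Immorto-mouse, in which an interferon γ-inducible promoter drives a temperature-sensitive SV40 large T antigen, and every population carries this transgene. Low-passage YAMC cells were infected with retroviruses carrying empty vectors (bleo/Neo), mutant p53175H with the Neo vector (mp53), RasV12 with the Bleo vector (Ras) or both oncogenes (mp53/Ras), which gave 4 polyclonal populations beside the parental cells. In each of the 5 groups 10 arrays were hybridised with polysomal RNA, the mRNA bound by several ribosomes, from cells held at 39 °C without interferon γ for 48 h and then without serum (0% FBS) for 24 h. Each population was derived once, so a difference between populations cannot be told apart from a difference between derivations. The replicates are numbered without a statement that they were separate cultures, so a p-value covers the spread among these arrays, which may be technical. Intensity from polysomal RNA depends on transcript abundance and ribosome loading together, and fewer cells of a type and less RNA per cell cannot be told apart.

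As background, cells build cholesterol from acetyl-CoA through mevalonate, the isoprenoid diphosphates, squalene and lanosterol, and they build fatty acids from the same acetyl-CoA through malonyl-CoA. Both pathways are driven by the sterol regulatory element binding proteins (SREBPs), which the escort protein SCAP carries from the endoplasmic reticulum to the Golgi for cleavage when sterols are low, while INSIG proteins hold SCAP back when sterols are high. Promoters that respond to SREBPs commonly combine a sterol regulatory element with sites for the factors NF-Y and Sp1, which bind CCAAT boxes and GC boxes.

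Promoter windows of 300 bases (250 before to 50 after an annotated start, RefSeq, GRCm38.p6) were found for 24 of the 30 genes, 32 windows in all. Fdps, Fdft1, Sqle, Stard4, Scd1 and Scd2 had no entry. The letters searched on both strands were TCACNCCAC (sterol regulatory element), CCAAT (the NF-Y box, ATTGG on the other strand), GGGCGG (GC box) and CACGTG (E-box), and no match of one motif overlapped a match of another in these windows. Of the 32 windows, 21 (65.6%) held CCAAT, against 37.4% of 32851 windows of all genes. GGGCGG was in 24 (75%) against 35.7%, CACGTG in 6 (18.8%) against 7.15%, and TCACNCCAC in 1 (3.12%) against 1.24%. Windows of one gene can overlap, and a match is a description of letters, not a binding site. The examples shown are 4 cholesterol genes that rose with RasV12 and hold CCAAT, and Elovl6, whose window held none of the 4 motifs. Sequences run 5′ to 3′ along the gene, and capitals mark TCACNCCAC and CCAAT matches on either strand.
Hmgcs1 (chr13:119690101-119690400, plus strand): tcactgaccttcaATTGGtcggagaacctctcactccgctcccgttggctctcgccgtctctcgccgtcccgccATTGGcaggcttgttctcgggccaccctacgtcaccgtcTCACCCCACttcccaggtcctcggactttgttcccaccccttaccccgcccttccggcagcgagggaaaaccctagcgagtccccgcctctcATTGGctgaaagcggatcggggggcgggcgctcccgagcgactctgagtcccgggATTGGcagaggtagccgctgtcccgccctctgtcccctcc
Idi1 (chr13:8885356-8885655, plus strand): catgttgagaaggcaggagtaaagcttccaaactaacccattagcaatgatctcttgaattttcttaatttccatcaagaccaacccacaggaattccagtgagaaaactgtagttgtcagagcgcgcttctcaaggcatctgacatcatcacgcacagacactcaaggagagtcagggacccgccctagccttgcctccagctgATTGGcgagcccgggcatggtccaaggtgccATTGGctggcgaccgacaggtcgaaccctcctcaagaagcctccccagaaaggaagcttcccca
Lss (chr10:76531355-76531654, plus strand): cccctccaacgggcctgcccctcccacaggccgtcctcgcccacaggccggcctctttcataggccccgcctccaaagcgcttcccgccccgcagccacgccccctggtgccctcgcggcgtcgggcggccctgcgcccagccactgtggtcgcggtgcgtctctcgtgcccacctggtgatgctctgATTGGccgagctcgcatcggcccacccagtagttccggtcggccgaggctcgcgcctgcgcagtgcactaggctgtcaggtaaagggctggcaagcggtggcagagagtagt
Sc5d (chr9:42264251-42264550, minus strand): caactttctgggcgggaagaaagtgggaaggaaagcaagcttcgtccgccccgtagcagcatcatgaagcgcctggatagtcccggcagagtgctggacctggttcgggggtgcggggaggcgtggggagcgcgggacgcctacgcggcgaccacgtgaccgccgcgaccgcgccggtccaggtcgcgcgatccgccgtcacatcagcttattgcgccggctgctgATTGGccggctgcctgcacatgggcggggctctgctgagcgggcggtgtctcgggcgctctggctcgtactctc
Elovl6 (chr3:129532136-129532435, plus strand): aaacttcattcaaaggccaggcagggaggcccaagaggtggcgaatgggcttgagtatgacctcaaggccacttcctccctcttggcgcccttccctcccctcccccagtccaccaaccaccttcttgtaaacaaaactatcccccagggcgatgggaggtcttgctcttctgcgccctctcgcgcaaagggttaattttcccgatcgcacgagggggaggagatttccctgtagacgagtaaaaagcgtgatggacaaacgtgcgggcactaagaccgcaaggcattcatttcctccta
The match to the sterol regulatory element in Hmgcs1 (TCACCCCAC) began 137 bases before the start, between CCAAT boxes that began 176 and 45 bases before it. Idi1 had CCAAT boxes beginning 45 and 14 bases before its start, Lss 1 beginning 62 bases and Sc5d 1 beginning 24 bases before it.

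Across the whole series, 4 of 50 arrays lay nearer another group's mean profile than their own. The arrays labelled mp53 10 and Ras 10 lay nearest each other's group, YAMC 2 nearest mp53 and mp53 8 nearest YAMC, and counts are therefore also given without them. Of 9 epithelial markers, 4 had means above the table median in mp53, 5 in YAMC and Ras, and 6 in bleo/Neo and mp53/Ras. Epcam, Krt8, Krt18 and Krt19 were above it in each group, and Cdh1 and Vil1 below it in each. Krt20, Cldn7 and Cdx2 were above it in some groups only, and all of them were below it in mp53. Of 6 fibroblast markers 4 lay above it in each group. Adipocytes make much fat, and of their 5 markers with a probe set at most 1 lay above the table median in any group, with means of Adipoq from 3.91 to 4.04 where the table's lowest value is 3.04. Of 3 hepatocyte markers with a probe set, 3 lay above the table median in bleo/Neo and 2 in each other group. Of 5 immune markers 3 lay above it in each group, and of 4 endothelial markers 1 or 2. The mean level of the 6 fibroblast markers was 9.78 in bleo/Neo, 10.48 in YAMC and 10.54 in mp53, while Ras had 9.83 and mp53/Ras 9.94. That of the 9 epithelial markers was 7.97, 7.56, 7.64, 7.97 and 8.11 in the same order. Their part in the differences below was not tested.

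Genes of these pathways were higher in both populations with RasV12. Against YAMC, 20 of 29 rose in Ras cells with none lower, at an adjusted p under 0.05 in limma, where 42.7% of all 12883 genes were called (21.5% higher). In mp53/Ras cells 22 rose and 1 fell, where 57.8% of all genes were called (29.1% higher). The median difference of the members was 0.57 in Ras and 0.55 in mp53/Ras cells on the log2 scale, and that of all genes 0.01 and 0.02. Against the vector population bleo/Neo, 13 members rose and 1 fell in Ras cells (background 41.1%, 19.7% higher), with a median difference of 0.27. In mp53/Ras cells 17 rose and 2 fell (background 54.6%, 26.7% higher), with a median of 0.32. Comparisons with one control share its 10 arrays. Ras against mp53, a comparison added after the data were seen, uses neither control, and there 19 members rose and none fell (background 32.9%, 16.7% higher).

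In mp53 cells without RasV12 no member rose against YAMC and 2 fell (background 22.9%, 11.8% lower), and against bleo/Neo 2 rose and 5 fell (background 35.4%, 16.5% higher and 18.9% lower). Called or not, 23 of 29 differences from YAMC were positive, with a median of 0.16 (all genes −0.003). From bleo/Neo 13 of 29 were positive, with a median of −0.07 (all genes −0.02). With RasV12 added to mutant p53, mp53/Ras against mp53, 19 rose and none fell (background 47.1%, 23.3% higher). Without the 4 arrays nearer another group, 26 members rose against YAMC in Ras and 25 in mp53/Ras, and 4 rose and 2 fell in mp53 cells. The share of all genes called was higher too, at 46.8%, 59.5% and 33.7%. Without them 19 rose and 1 fell in Ras cells against bleo/Neo, and 2 rose and 9 fell in mp53 cells against bleo/Neo, where 47.1% and 40.1% of all genes were called.

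Groups whose arrays did not overlap at all were fewer. In mp53/Ras cells 7 members lay wholly above YAMC (background 16.1% of all genes apart in either direction), 6 wholly above bleo/Neo (17.3%) and 3 wholly above mp53 (11.0%). In Ras cells Hsd17b7 lay wholly above YAMC (4.18%) and Scd1 wholly above bleo/Neo (6.81%). Scd1 also set bleo/Neo apart from YAMC (4.88%) and from mp53 (4.52%). No member was apart in mp53/Ras against Ras (4.31%), Ras against mp53 (1.16%) or mp53 against YAMC (0.241%).

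**Figure D1:**
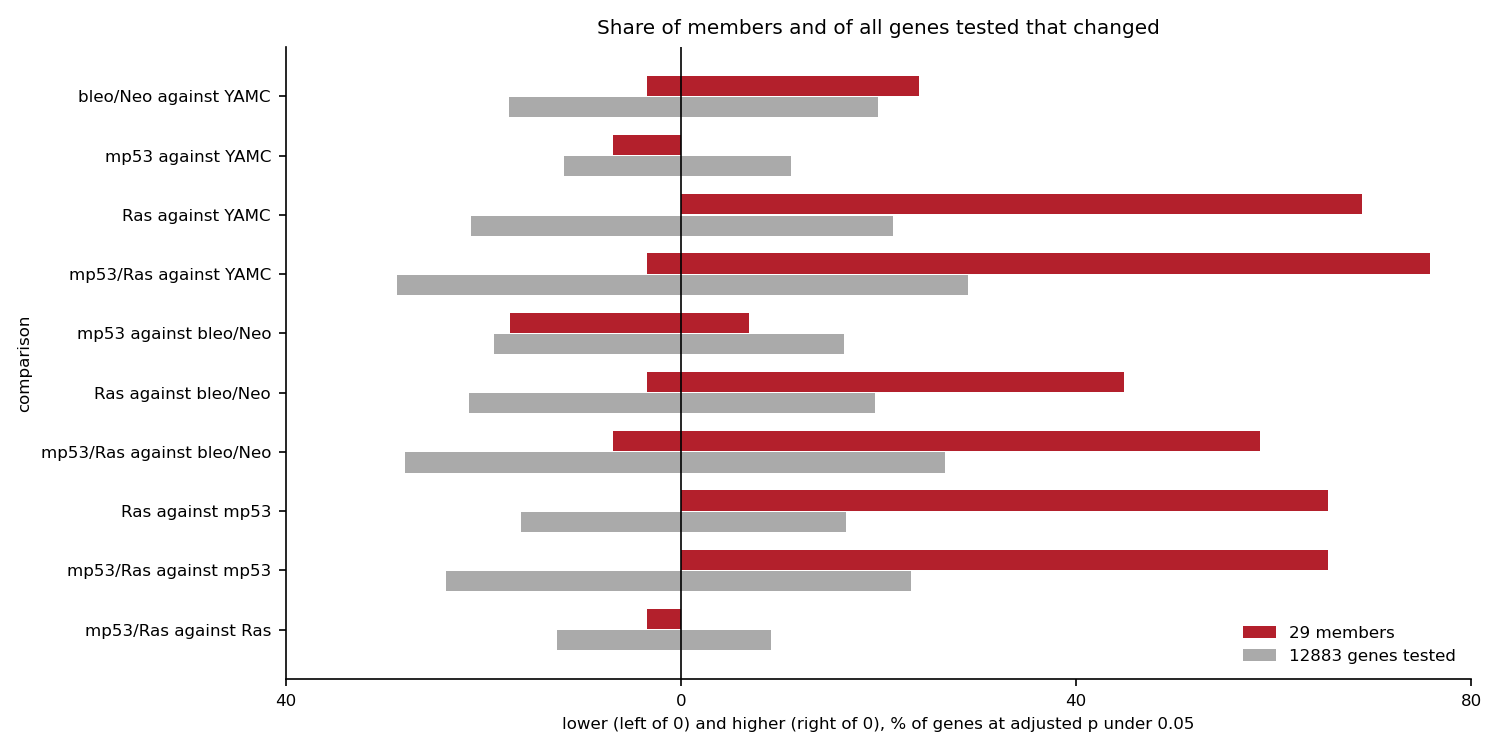
Horizontal bars give the percentage of the 29 members (red) and of the 12883 genes tested (grey) that were higher (right of 0) or lower (left of 0) at an adjusted p under 0.05, for 10 comparisons. Red bars reach farthest to the right in mp53/Ras against YAMC (22 of 29) and Ras against YAMC (20 of 29), and no red bar lies right of 0 for mp53 against YAMC or mp53/Ras against Ras.

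The first enzymes lead from acetyl-CoA to farnesyl diphosphate, and 5 of the 6 measured rose in Ras and in mp53/Ras cells against each control. That is 83.3% of them, where 42.7% and 57.8% of all genes were called against YAMC in the same populations and 41.1% and 54.6% against bleo/Neo. Fdps, farnesyl diphosphate synthase, had log2 intensities of 11.01 to 12.52 (median 12.03) over the YAMC arrays, 11.03 to 12.46 (12.29) in bleo/Neo and 10.96 to 13.02 (12.42) in mp53. They were 12.14 to 13.05 (12.80) in Ras and 12.70 to 13.05 (12.95) in mp53/Ras. Every mp53/Ras array lay above every YAMC and every bleo/Neo array, while the mp53 arrays spread across both. The difference from YAMC was 0.93 ± 0.16 (SE of the fit, n = 10 arrays per group throughout; adjusted p = 4.28e-06) in mp53/Ras and 0.76 ± 0.16 (adjusted p = 0.000174) in Ras cells.

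Pmvk encodes phosphomevalonate kinase, which adds the second phosphate to mevalonate. Its intensity was 8.41 to 9.42 (median 9.25) in YAMC, 8.79 to 9.60 (9.36) in bleo/Neo and 8.63 to 10.04 (9.39) in mp53. In Ras cells it was 9.28 to 10.48 (9.70), and in mp53/Ras cells 9.75 to 10.22 (10.04), above every array of either control. It rose by 0.91 ± 0.13 in mp53/Ras cells against YAMC and by 0.68 ± 0.13 against bleo/Neo (adjusted p = 3.21e-08 and 9.91e-06).

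Idi1, the isomerase that makes the isoprenoid building blocks interchangeable, was at 10.44 to 11.83 (median 11.36) in YAMC and 11.21 to 12.18 (11.64) in bleo/Neo. It was at 11.13 to 12.21 (11.34) in mp53, 11.33 to 12.39 (12.06) in Ras and 11.82 to 12.17 (11.98) in mp53/Ras, and each pair of groups overlapped. It was already 0.41 ± 0.13 higher in bleo/Neo than in YAMC, and its rise in mp53/Ras cells was 0.72 ± 0.13 against YAMC and 0.30 ± 0.13 against bleo/Neo (adjusted p = 5.84e-06 and 0.043). Without YAMC 3 and bleo/Neo 3 the latter was 0.25 and no longer passed (adjusted p = 0.0688), and the rise of 0.33 ± 0.13 in Ras cells against bleo/Neo lost its call too (adjusted p = 0.0546).

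Hmgcs1, which makes the HMG-CoA from which mevalonate is formed, rose against YAMC by 0.58 ± 0.16 in Ras and 0.55 ± 0.16 in mp53/Ras, and against bleo/Neo by 0.65 ± 0.16 and 0.62 ± 0.16. Its other bright probe sets gave 0.49 to 0.99 in Ras and 0.61 to 1.24 in mp53/Ras cells against YAMC. Against bleo/Neo they gave 0.23 to 0.62 and 0.35 to 0.82. Mvd, the decarboxylase that yields isopentenyl diphosphate, rose by 0.73 ± 0.16 and 0.65 ± 0.16 against YAMC. Mvk, mevalonate kinase, was the exception. Its difference from YAMC was 0.07 ± 0.09 in Ras and 0.11 ± 0.09 in mp53/Ras cells, neither of which passed, and it fell by 0.31 ± 0.09 in mp53 cells (adjusted p = 0.0104), which the median of its probe sets did not give (−0.18, adjusted p = 0.2). Another bright Mvk probe set was at 0.29 in Ras, 0.44 in mp53/Ras and −0.06 in mp53 cells against YAMC.

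**Figure D2:**
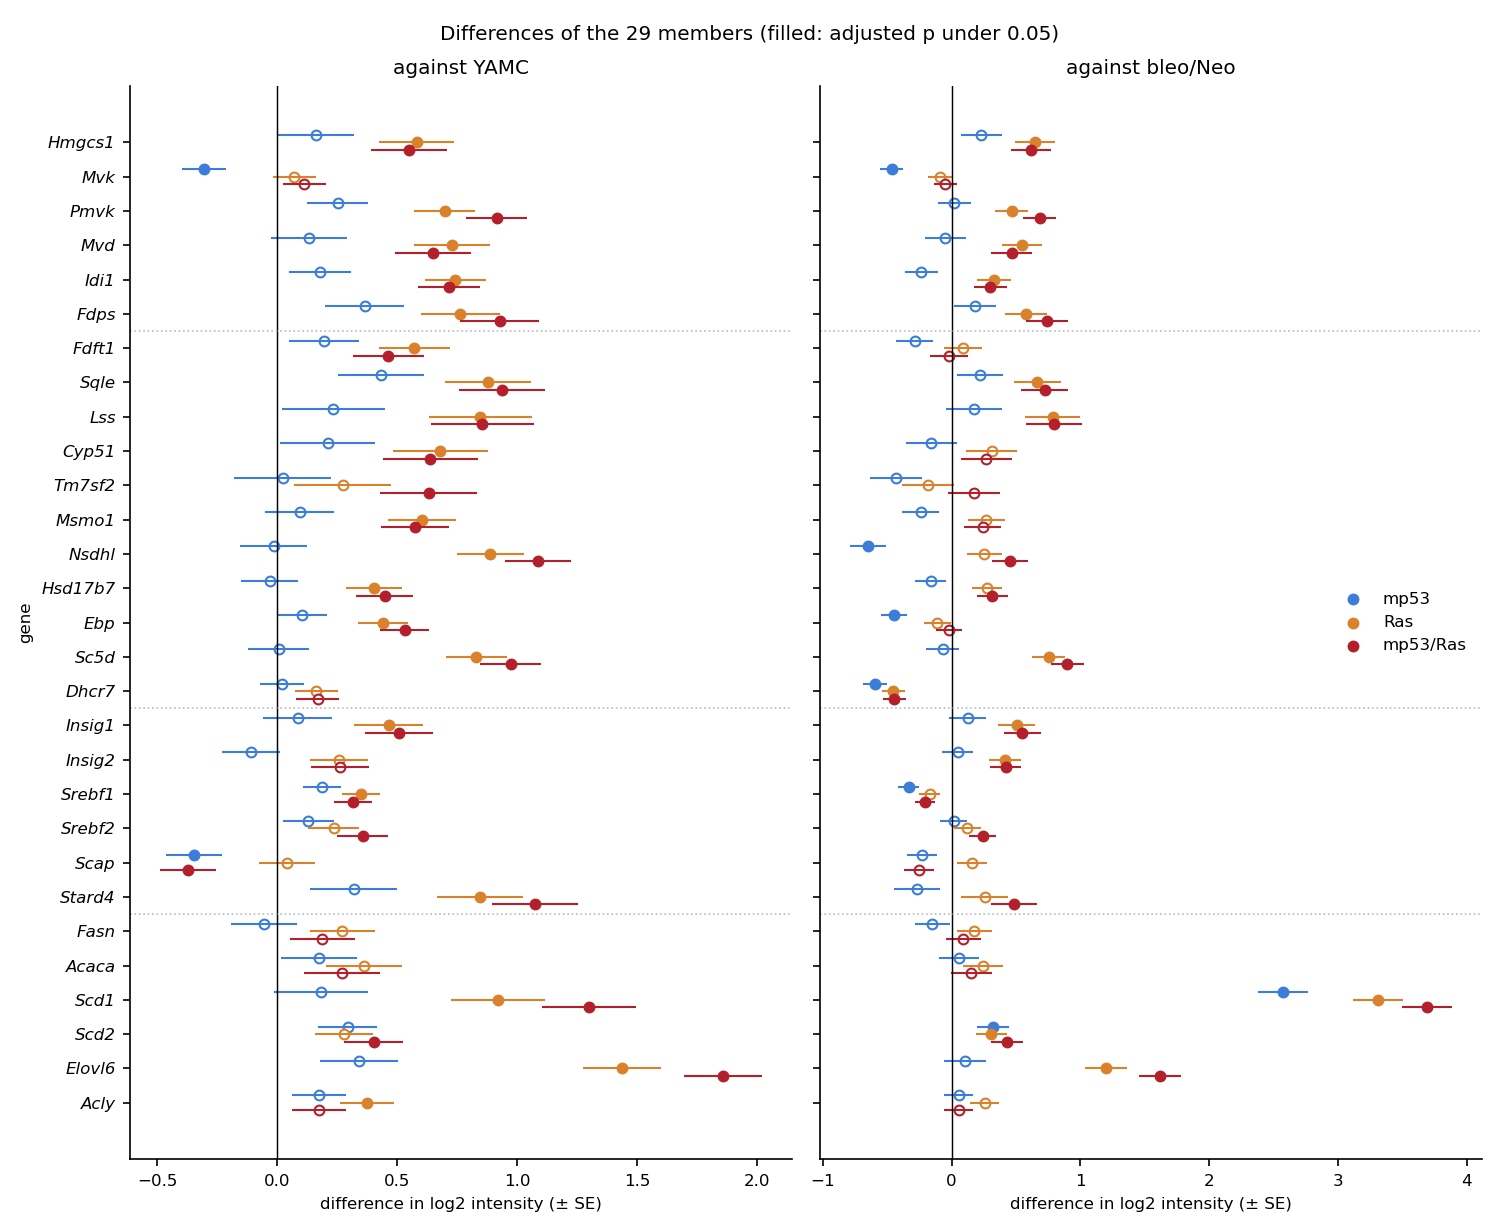
Differences in log2 intensity of the 29 members in mp53 (blue), Ras (orange) and mp53/Ras cells (red) against YAMC (left) and bleo/Neo (right, with its own axis), as points with the SE of the fit. Filled points passed an adjusted p of 0.05, and dotted lines separate the mevalonate, sterol, regulator and fatty acid genes. Scd1 lies 3.69 right of 0 against bleo/Neo in mp53/Ras cells and 1.30 against YAMC.

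The enzymes from squalene to cholesterol rose against YAMC in 9 of 11 cases in Ras and in 10 of 11 in mp53/Ras cells, with none lower. Of all genes 21.5% and 29.1% were higher in these comparisons. Against bleo/Neo 5 of 11 rose and 1 fell in mp53/Ras cells, a share called of 54.5% beside 54.6% of all genes. In Ras cells 3 of 11 rose and 1 fell against bleo/Neo, 36.4% called, below the 41.1% of all genes. Sqle, squalene epoxidase, a step that controls flux into the sterols, was at 8.90 to 11.82 (median 10.27) in YAMC, 9.36 to 10.98 (10.63) in bleo/Neo and 10.49 to 11.23 (10.62) in mp53. It was at 10.86 to 11.70 (11.15) in Ras and 11.05 to 11.44 (11.28) in mp53/Ras. The mp53/Ras arrays lay above the bleo/Neo arrays without overlap, but YAMC reached both higher and lower. The rise in mp53/Ras cells was 0.94 ± 0.18 against YAMC and 0.72 ± 0.18 against bleo/Neo (adjusted p = 1.70e-05 and 0.000608).

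Lss, lanosterol synthase, closes squalene epoxide into the first sterol. Its intensity was 8.27 to 10.89 (median 9.37) in YAMC, 8.43 to 10.22 (9.39) in bleo/Neo and 9.03 to 10.78 (9.39) in mp53, and it was 9.72 to 11.06 (10.16) in Ras and 9.84 to 10.61 (10.20) in mp53/Ras. The groups overlapped, and YAMC held both the lowest array and one near the highest. Against YAMC its rise was 0.85 ± 0.21 in Ras and 0.86 ± 0.21 in mp53/Ras, and against bleo/Neo 0.79 ± 0.21 and 0.80 ± 0.21. With the median of its probe sets the rise in Ras cells against YAMC was 0.58 and just missed the threshold (adjusted p = 0.0512).

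Nsdhl, a dehydrogenase that helps remove methyl groups from lanosterol derivatives, differed between the controls. It was at 8.88 to 10.25 (median 9.93) in YAMC, 9.64 to 10.78 (10.58) in bleo/Neo and 9.60 to 10.45 (9.66) in mp53. It was at 9.86 to 11.18 (10.78) in Ras and 10.73 to 11.16 (10.92) in mp53/Ras. The mp53/Ras arrays lay above those of YAMC and mp53 without overlap. The rise was 1.09 ± 0.14 against YAMC and 1.10 ± 0.14 against mp53 (adjusted p = 3.39e-09 and 4.61e-09). It was 0.45 ± 0.14 against bleo/Neo (adjusted p = 0.0046), which itself stood 0.63 ± 0.14 above YAMC.

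Sc5d, the desaturase that acts near the end of the pathway, was at 8.88 to 10.19 (median 9.62) in YAMC, 9.0 to 10.05 (9.69) in bleo/Neo and 9.33 to 10.16 (9.49) in mp53. In Ras it was at 9.46 to 10.83 (10.53), with Ras 10 as the lowest array, and in mp53/Ras at 10.35 to 10.71 (10.59). The 10 mp53/Ras arrays lay above the arrays of YAMC, bleo/Neo and mp53. Its rise in mp53/Ras cells was 0.97 ± 0.13 against YAMC, 0.90 ± 0.13 against bleo/Neo and 0.97 ± 0.13 against mp53 (adjusted p = 8.34e-09, 4.66e-08 and 1.75e-08). Another Sc5d probe set disagreed in part. It was 0.23 higher in mp53/Ras than in YAMC and 0.89 higher than in bleo/Neo, and its difference between bleo/Neo and YAMC was −0.66 where the brightest probe set gave 0.07.

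Of the remaining sterol enzymes, the methylsterol oxidase Msmo1 rose against YAMC by 0.60 ± 0.14 in Ras and 0.57 ± 0.14 in mp53/Ras cells, while the lanosterol demethylase Cyp51 rose by 0.68 ± 0.20 and 0.64 ± 0.20. Squalene synthase, Fdft1, rose by 0.57 ± 0.15 and 0.46 ± 0.15, and the sterol isomerase Ebp by 0.44 ± 0.10 and 0.53 ± 0.10. Hsd17b7, a ketoreductase of the same demethylation steps as Nsdhl, rose by 0.40 ± 0.12 and 0.45 ± 0.12. Its rise in mp53/Ras cells against bleo/Neo was 0.32 ± 0.12, which did not pass without YAMC 3 and bleo/Neo 3 (adjusted p = 0.0537). Msmo1, Cyp51, Fdft1 and Ebp had means 0.33 to 0.55 above YAMC in bleo/Neo, and against bleo/Neo they did not pass in either population, with differences from −0.11 to 0.31. Other bright Cyp51 probe sets gave larger differences from bleo/Neo, 0.58 and 0.46 in Ras and 0.63 and 0.46 in mp53/Ras cells. Without mp53 10 and Ras 10, Msmo1 passed in Ras cells against bleo/Neo (0.35, adjusted p = 0.0389). Tm7sf2, a sterol reductase, passed against YAMC in mp53/Ras (0.63 ± 0.20) and not in Ras cells (0.27 ± 0.20), and the difference between those populations was 0.36 with a 95% interval of −0.05 to 0.77.

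Dhcr7, the reductase that completes cholesterol, followed another order, and bleo/Neo was its highest group. Its mean was 10.83 ± 0.18 (SD, n = 10) in bleo/Neo. The other means were 10.22 ± 0.28 for YAMC, 10.24 ± 0.18 for mp53, 10.38 ± 0.19 for Ras and 10.39 ± 0.14 for mp53/Ras. It fell against bleo/Neo by 0.59 ± 0.09 in mp53 cells, and by 0.45 ± 0.09 and 0.45 ± 0.09 in the populations with RasV12 alone and with both oncogenes. Against YAMC the differences were 0.02 ± 0.09, 0.16 ± 0.09 and 0.17 ± 0.09, which did not pass. Without the 4 arrays nearer another group those of Ras and mp53/Ras cells passed (0.23 and 0.24).

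**Figure D3:**
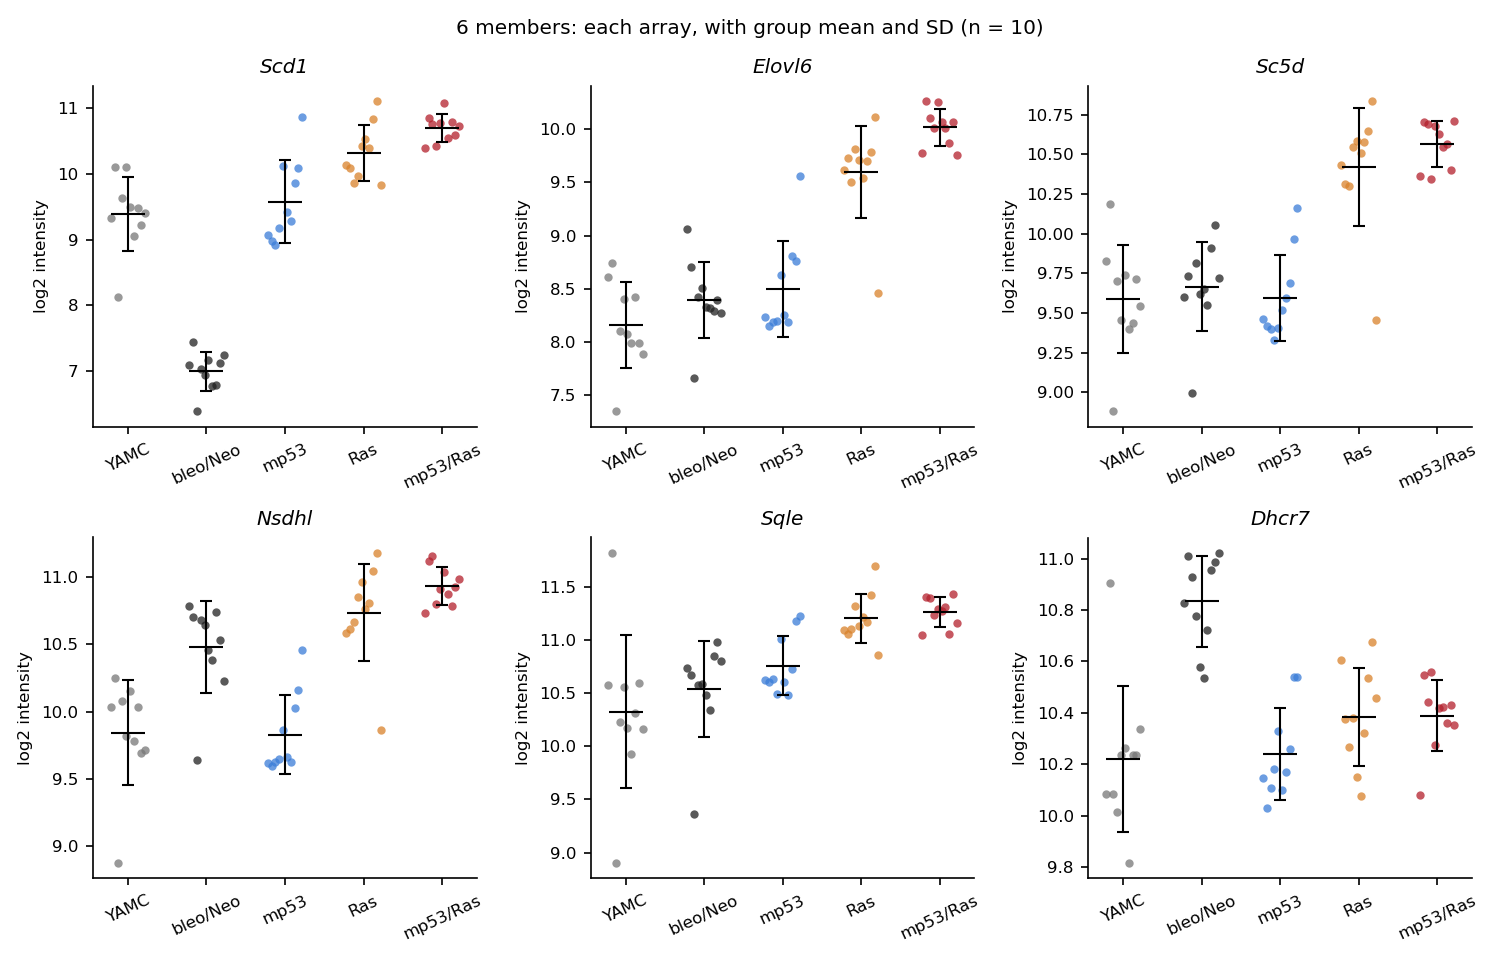
Log2 intensity of 6 members on each array (points, in order of replicate number within a group), with the group mean and SD (bars, n = 10), on axes that do not start at 0. Scd1 is lowest on the 10 bleo/Neo arrays, at 6.39 to 7.45 (median 7.07), Dhcr7 has its highest mean in bleo/Neo, and the point far below the other Ras points for Elovl6, Sc5d and Nsdhl is Ras 10.

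Among the 5 regulators and the sterol carrier Stard4, 3 rose in Ras and 4 in mp53/Ras cells against YAMC, and 1 fell in mp53/Ras cells. The share called in Ras cells, 50.0%, was near the 42.7% of all genes, and in mp53/Ras cells it was 83.3% beside 57.8%. Srebf2 encodes the SREBP that chiefly drives cholesterol genes. Its intensity was 9.39 to 9.90 (median 9.70) in YAMC, 9.56 to 10.02 (9.83) in bleo/Neo and 8.89 to 10.47 (9.83) in mp53. It was 9.49 to 10.26 (9.88) in Ras and 9.75 to 10.30 (10.09) in mp53/Ras. The groups overlapped throughout, and the rise in mp53/Ras cells was 0.36 ± 0.11 against YAMC (adjusted p = 0.0035) and 0.24 ± 0.11 against bleo/Neo (adjusted p = 0.0465, and 0.0904 without YAMC 3 and bleo/Neo 3). In Ras cells its difference of 0.23 ± 0.11 from YAMC did not pass (adjusted p = 0.0672, and 0.0254 without mp53 10 and Ras 10). Another bright Srebf2 probe set gave larger differences from YAMC, 0.96 in Ras and 1.02 in mp53/Ras cells. It also gave 0.73 in mp53 and 0.69 in bleo/Neo, where the brightest one gave 0.13 and 0.11. Against bleo/Neo this other probe set was at 0.27 in Ras and 0.34 in mp53/Ras cells.

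Srebf1 gives SREBP forms that chiefly drive fatty acid genes. It was at 9.94 to 10.51 (median 10.29) in YAMC, 10.50 to 11.02 (10.75) in bleo/Neo and 10.21 to 10.85 (10.43) in mp53. It was at 10.46 to 10.87 (10.61) in Ras and 10.24 to 10.96 (10.60) in mp53/Ras. Its highest mean was in bleo/Neo, 0.52 ± 0.08 above YAMC (adjusted p = 5.88e-07), with overlap of a single pair of extreme arrays. It rose against YAMC by 0.35 ± 0.08 in Ras and 0.31 ± 0.08 in mp53/Ras, and fell against bleo/Neo by 0.20 ± 0.08 in mp53/Ras cells (adjusted p = 0.0258). With arrays centred on their medians that fall was −0.17 and did not pass (adjusted p = 0.0697).

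Scap, the escort of the SREBPs, had its lowest means in the populations with mutant p53. It was at 9.56 to 11.03 (median 10.54) in YAMC, 9.93 to 10.93 (10.51) in bleo/Neo and 10.0 to 10.92 (10.62) in Ras, and at 10.02 to 10.42 (10.22) in mp53 and 10.02 to 10.54 (10.20) in mp53/Ras cells. The ranges overlapped. It fell against YAMC by 0.35 ± 0.12 in mp53 and 0.37 ± 0.12 in mp53/Ras cells (adjusted p = 0.0257 and 0.0059) and against Ras by 0.41 ± 0.12 in mp53/Ras cells (adjusted p = 0.0076). Against bleo/Neo neither difference passed (−0.23 ± 0.12 and −0.25 ± 0.12), though both did without the 4 arrays nearer another group (−0.25 and −0.25). Without YAMC 3 and bleo/Neo 3 the difference of mp53 cells from YAMC was −0.29 and no longer passed (adjusted p = 0.0563), nor did it with these populations fitted alone (adjusted p = 0.0717). With the median of its probe sets, the falls in mp53/Ras cells lost their calls, at −0.02 against YAMC and −0.09 against Ras (adjusted p = 0.799 and 0.407). The other Scap probe set was dim, with a mean of 4.84, below the table median, and was higher in mp53/Ras cells by 0.32 than in YAMC and 0.23 than in Ras.

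Both INSIG genes, the brakes on SREBP transport, rose with RasV12 against bleo/Neo. Insig1, itself a known SREBP target, was at 8.18 to 9.48 (median 8.56) in YAMC, 7.88 to 9.42 (8.61) in bleo/Neo and 8.43 to 9.30 (8.77) in mp53. It was at 8.79 to 9.92 (9.13) in Ras and 8.74 to 9.57 (9.15) in mp53/Ras, and the ranges overlapped. Its rise was 0.47 ± 0.14 in Ras and 0.51 ± 0.14 in mp53/Ras cells against YAMC, and 0.51 ± 0.14 and 0.55 ± 0.14 against bleo/Neo.

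Insig2 was at 8.57 to 9.03 (median 8.73) in YAMC, 8.22 to 9.18 (8.56) in bleo/Neo, 8.33 to 8.97 (8.73) in mp53, 8.48 to 9.69 (9.05) in Ras and 8.57 to 9.45 (9.0) in mp53/Ras. These ranges overlapped, and it rose against bleo/Neo by 0.41 ± 0.12 in Ras and 0.42 ± 0.12 in mp53/Ras cells. Against YAMC it was at 0.26 ± 0.12 and 0.26 ± 0.12 and did not pass, and without mp53 10 and Ras 10 it did (adjusted p = 0.0253 and 0.0484). Other bright Insig2 probe sets gave 0.56 and 0.36 in Ras and 0.26 and 0.50 in mp53/Ras cells against YAMC.

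Stard4 carries sterols between membranes and is another known SREBP target. It was at 9.67 to 11.13 (median 10.49) in YAMC, 10.46 to 11.25 (11.16) in bleo/Neo and 9.64 to 11.31 (10.98) in mp53. In Ras it was at 10.30 to 11.69 (11.30) and in mp53/Ras at 11.24 to 11.77 (11.54), above each YAMC array. The rise in mp53/Ras cells was 1.07 ± 0.18 against YAMC and 0.49 ± 0.18 against bleo/Neo (adjusted p = 1.58e-06 and 0.0197).

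Of the 6 genes of fatty acid synthesis, 3 rose in Ras cells (Scd1, Elovl6 and Acly) and 3 in mp53/Ras cells (Scd1, Scd2 and Elovl6) against YAMC. This share of 50.0% lay near the 42.7% of all genes called in Ras and below the 57.8% in mp53/Ras cells. Elovl6 encodes the elongase that lengthens palmitate to stearate. Its intensity was 7.35 to 8.74 (median 8.09) in YAMC, 7.66 to 9.06 (8.36) in bleo/Neo and 8.15 to 9.56 (8.25) in mp53, where mp53 10 was the highest array. It was 8.47 to 10.11 (9.70) in Ras, where Ras 10 was the lowest array, and 9.75 to 10.26 (10.04) in mp53/Ras. The 10 mp53/Ras arrays lay above those of YAMC, bleo/Neo and mp53. Elovl6 rose against YAMC by 1.44 ± 0.16 in Ras (2.71-fold) and 1.86 ± 0.16 in mp53/Ras cells (3.62-fold, adjusted p = 7.74e-14), and against bleo/Neo by 1.20 ± 0.16 and 1.62 ± 0.16. Without mp53 10 and Ras 10 the rise in Ras cells against YAMC was 1.56. Another bright Elovl6 probe set was 1.07 higher in Ras and 1.64 higher in mp53/Ras cells than in bleo/Neo.

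Scd1, a desaturase that makes oleate from stearate, had the widest range of group means among the members, 3.69 on the log2 scale. It was at 8.13 to 10.11 (median 9.44) in YAMC, 6.39 to 7.45 (7.07) in bleo/Neo and 8.92 to 10.87 (9.35) in mp53. In Ras it was at 9.83 to 11.10 (10.26) and in mp53/Ras at 10.39 to 11.08 (10.75). The 10 bleo/Neo arrays lay below every other array, and the mp53/Ras arrays lay above those of YAMC without overlap. Scd1 fell by 2.39 ± 0.19 in bleo/Neo against YAMC (5.25-fold, adjusted p = 1.29e-14), and its rises against bleo/Neo were 2.58 ± 0.19 for mp53, 3.31 ± 0.19 for Ras and 3.69 ± 0.19 for mp53/Ras. Against YAMC the differences were 0.18 ± 0.19 in mp53 (adjusted p = 0.537), 0.92 ± 0.19 in Ras (adjusted p = 0.000135) and 1.30 ± 0.19 in mp53/Ras cells (2.46-fold, adjusted p = 1.56e-07). The other Scd1 probe set gave −1.20 for bleo/Neo against YAMC and 2.81 for mp53/Ras against bleo/Neo.

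Scd2, the desaturase paralog of Scd1, had means of 12.52 ± 0.39 (SD, n = 10) in bleo/Neo and 12.55 ± 0.41 in YAMC, a difference of −0.03 ± 0.12. It averaged 12.84 ± 0.19 for mp53, 12.83 ± 0.16 for Ras and 12.95 ± 0.12 for mp53/Ras. It rose in mp53/Ras cells by 0.40 ± 0.12 against YAMC and 0.43 ± 0.12 against bleo/Neo. Its rises of 0.32 ± 0.12 in mp53 and 0.31 ± 0.12 in Ras cells against bleo/Neo had adjusted p = 0.0326 and 0.0365. They did not pass without mp53 10 and Ras 10 (adjusted p = 0.0554 and 0.0607) or without YAMC 3 and bleo/Neo 3 (adjusted p = 0.0623 and 0.0717), nor with the median of probe sets (adjusted p = 0.238 and 0.126). A second Scd2 probe set gave 1.51 for mp53/Ras against bleo/Neo, a larger difference than the brightest one.

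The entry enzymes of fatty acid synthesis had narrow ranges of group means, 0.38 for Acly, 0.36 for Acaca and 0.33 for Fasn. Acly, ATP citrate lyase, which supplies cytosolic acetyl-CoA, rose in Ras cells against YAMC by 0.38 ± 0.11 (adjusted p = 0.0059), while mp53/Ras cells were at 0.17 ± 0.11. Other bright Acly probe sets did not separate these populations in this way. They gave 0.47 and 0.48 in Ras and 0.51 and 0.57 in mp53/Ras cells against YAMC. Acaca, acetyl-CoA carboxylase, was at 0.36 ± 0.16 and 0.27 ± 0.16 in Ras and mp53/Ras cells against YAMC, and Fasn, fatty acid synthase, at 0.27 ± 0.14 and 0.19 ± 0.14, none of which passed. The 95% interval for Fasn in mp53/Ras against YAMC was −0.09 to 0.46. Without the 4 arrays nearer another group, Acaca passed in both (0.41 and 0.36) and Fasn in Ras cells (0.34, adjusted p = 0.0347).

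The vector population differed from its parental cells in 8 of the 29 genes, 7 higher and 1 lower (background 37.4%, 20.0% higher). Idi1, Fdft1, Nsdhl, Ebp, Dhcr7, Srebf1 and Stard4 rose by 0.41 to 0.63, and Scd1 fell. Stard4 did not pass here with the median of its probe sets (0.23, adjusted p = 0.0616). In mp53 against bleo/Neo, Nsdhl, Dhcr7, Mvk, Ebp and Srebf1 fell, with differences from −0.65 to −0.33, and Scd1 and Scd2 rose. Of these falls that of Mvk also passed against YAMC, where Nsdhl was at −0.02, Dhcr7 at 0.02, Ebp at 0.10 and Srebf1 at 0.19.

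Between the populations with RasV12, mp53/Ras against Ras, 1 of 29 members passed, Scap, which fell (background 21.6%, 9.12% higher and 12.5% lower). That fall lost its call with the median of probe sets, under which 1 member rose and 0 fell. By the brightest probe sets, the other 28 differences ran from −0.20 (Acly) to 0.42 (Elovl6, 95% interval 0.10 to 0.75, adjusted p = 0.0558), with Scd1 at 0.38 (−0.01 to 0.77). Other bright Acly probe sets gave 0.04 and 0.09 here. Some other bright probe sets lay outside that range, with 0.57 for Elovl6 and −0.30 for Insig2. Those of Scd2 disagreed in sign, with 0.82 and, from one with a mean of 6.44 near the table median, −0.61, where the brightest gave 0.12. For Hmgcs1, Idi1, Sqle and Lss the differences were −0.03, −0.03, 0.06 and 0.01, and their 95% intervals stayed between −0.42 and 0.44. Other bright Hmgcs1 probe sets gave 0.16, 0.12 and 0.25 here. Elovl6 passed when YAMC 3 and bleo/Neo 3 were left out (adjusted p = 0.0343).

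The non-additive term asks whether mp53/Ras departs from the sum of the mp53 and Ras differences from bleo/Neo on the log2 scale, and it passed for 7 of 29 genes (background 23.9%, 11.8% higher and 12.0% lower). Mvk (0.51 ± 0.13), Tm7sf2 (0.79 ± 0.29), Nsdhl (0.85 ± 0.20), Ebp (0.54 ± 0.15), Dhcr7 (0.60 ± 0.13) and Srebf1 (0.30 ± 0.11) were positive, and Scd1 (−2.20 ± 0.28) was negative. Srebf1 did not pass under the stricter filter on dim genes (adjusted p = 0.054). Each of the positive genes had a lower mean in mp53 than in bleo/Neo, and Scd1 had its lowest mean in bleo/Neo, the baseline of the term.

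Single arrays stood apart over many enzymes. For the 17 measured enzymes from Hmgcs1 to Dhcr7, the median deviation of an array from its group's median was −0.92 on YAMC 3 and −0.69 on bleo/Neo 3, where 2 and 3 of the 17 lay above the group median. It was 0.56 on YAMC 2, 0.45 on mp53 9, 0.61 on mp53 10 (17 of 17 above) and 0.39 on Ras 9, and −0.43 on Ras 10. The mp53/Ras arrays stayed between −0.12 and 0.18. Without YAMC 3 and bleo/Neo 3, 20 members rose in Ras and 22 in mp53/Ras cells against YAMC, and 11 and 14 rose against bleo/Neo. Of all genes 42.0% and 56.7% were then called against YAMC, and 39.8% and 53.0% against bleo/Neo.

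**Figure D4:**
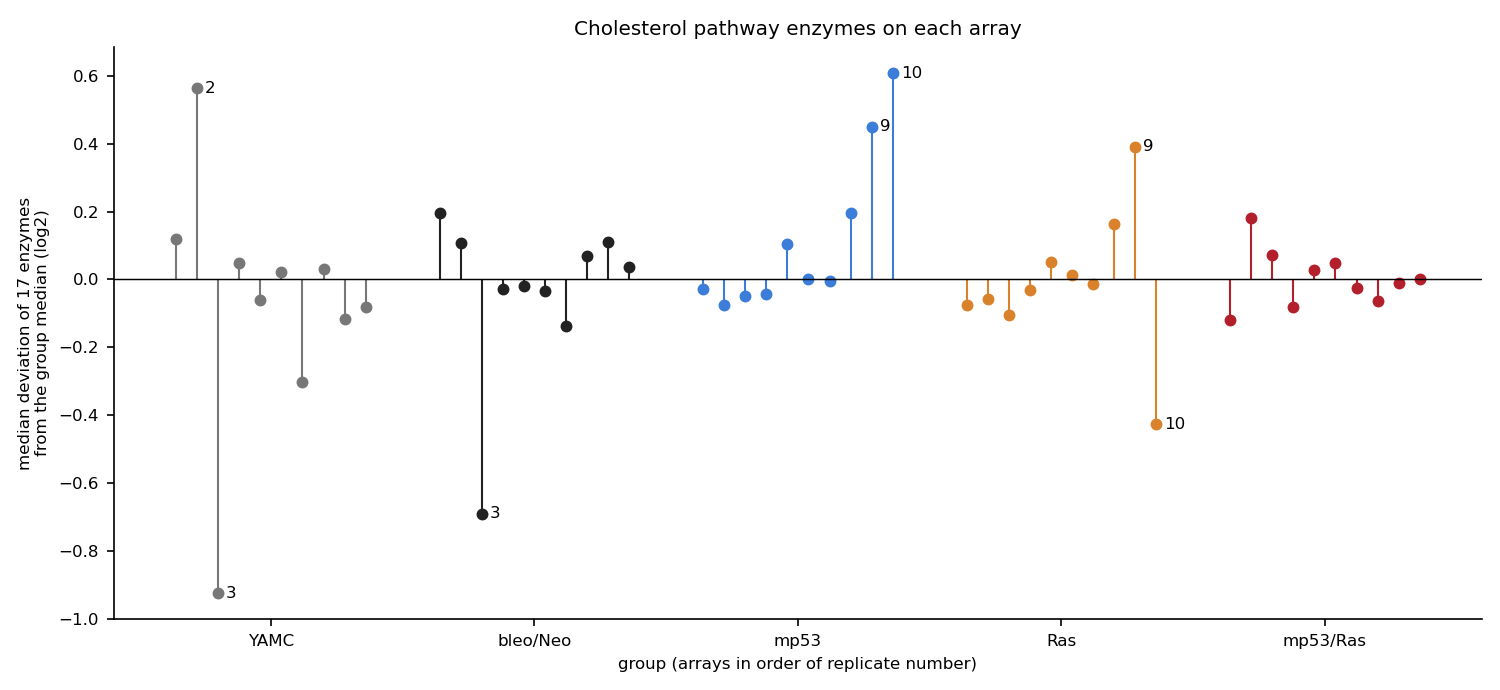
Median deviation, over 17 cholesterol pathway enzymes, of each array from the median of its own group (log2), in order of replicate number, with numbers printed where it exceeds 0.35 in size. YAMC 3 (−0.92) and bleo/Neo 3 (−0.69) lie lowest, mp53 10 (0.61) and YAMC 2 (0.56) highest, and the 10 mp53/Ras arrays lie close to 0.

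Neighbouring lipid pathways were counted in mp53/Ras cells in the same way. Of 18 genes of cholesterol uptake, trafficking and efflux 16 were tested, and 4 rose and 6 fell against bleo/Neo and 3 rose and 8 fell against YAMC, with medians of 0.05 and −0.15. The shares called, 62.5% and 68.8%, stood beside 54.6% and 57.8% of all genes, the background of each list here. Abca1, the transporter that exports cholesterol to lipoproteins, fell by 2.90 ± 0.31 against bleo/Neo and 3.07 ± 0.31 against YAMC (adjusted p = 2.37e-11 and 6.30e-12), and by 1.42 ± 0.31 in Ras cells against bleo/Neo. Nceh1, a cholesterol ester hydrolase, fell by 1.16 ± 0.13 against bleo/Neo, and Mylip, a ligase that degrades lipoprotein receptors, rose by 0.61 ± 0.07, with 0.06 ± 0.07 against YAMC.

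Of 13 genes for SREBP processing and sterol sensing 11 were tested, and 2 rose and 5 fell against bleo/Neo (1 and 3 against YAMC), with medians of −0.08 and −0.09. These were 63.6% and 36.4% of the list, near and below the share of all genes. Fbxw7, part of the ligase that marks nuclear SREBPs for destruction, fell by 0.89 ± 0.17, Pgrmc1, a heme-binding membrane protein, fell by 0.66 ± 0.11, and Tmem97, a sterol-responsive membrane protein, rose by 0.73 ± 0.12. Of 14 genes of the isoprenoid branches 13 were tested, and 4 rose and 4 fell (3 and 3 against YAMC), with medians of 0.02 and −0.08. The shares called, 61.5% and 46.2%, were again near and below those of all genes. Rabggtb, a subunit of the enzyme that prenylates Rab proteins, rose by 0.61 ± 0.07, and Dolk, dolichol kinase, and Zmpste24, a protease that trims prenylated proteins, fell by 0.73 ± 0.10 and 0.56 ± 0.08.

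Of 19 genes of fatty acid elongation, desaturation and glycerolipid synthesis 18 were tested, and 2 rose and 8 fell against bleo/Neo, with 5 and 3 against YAMC and medians of −0.16 and 0.12. That is 55.6% and 44.4% called, beside 54.6% and 57.8% of all genes. In bleo/Neo itself 10 rose and 1 fell against YAMC, 61.1% beside 37.4% of all genes. The elongase Elovl7 fell by 1.97 ± 0.14 against bleo/Neo and was at 0.20 ± 0.14 against YAMC, while Lpin1, a phosphatidate phosphatase, fell by 1.35 ± 0.19 and 1.36 ± 0.19. Acacb, the mitochondrial acetyl-CoA carboxylase whose product restrains fatty acid oxidation, fell by 0.89 ± 0.07 and 0.41 ± 0.07. Of 13 fatty acid oxidation genes 10 were tested, and 2 rose and 6 fell against bleo/Neo and 2 rose and 7 fell against YAMC, with medians of −0.30 and −0.35. Of all genes 54.6% and 57.8% were called in these comparisons, 27.9% and 28.7% lower. Hadhb, of the trifunctional protein of β-oxidation, fell by 0.59 ± 0.15 against bleo/Neo, Cpt2, which regenerates acyl-CoA in mitochondria, fell by 0.50 ± 0.12, and Acadm, a dehydrogenase for medium chains, rose by 0.66 ± 0.07.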

How the data were processed

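Polysomal RNA (5 µg per array) was hybridised to Affymetrix arrays of the mouse genome, per the labels' protocols. The authors deposited a linear intensity for each probe set and array, and the submitters' processing notes name RMA. How its log scale was undone is not given in the sources used here. The 50 array medians of the deposited intensities ran from 86.4 to 86.7, so arrays had been brought to a common scale. Of 45101 probe sets 64 were blank. Intensities were taken to log2 without an offset. Probe sets with several symbols (932) or none (9160) in the platform annotation were left out. No read depth applies to arrays, and their number limits the precision.

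A single model in limma 3.58.1 (R 4.3.3), with a mean for every group and an intensity trend, took in the 50 arrays. Tests were two-sided, adjusted by Benjamini-Hochberg over the 12883 genes tested in each of 11 comparisons and called at 0.05, and the fit was tested on simulated data. The members, lists and tests were chosen with earlier results of these data known, and Ras against mp53 was added after the data were seen. Every member is named, with the range over arrays for the 10 of widest range of group means and for 5 regulators. Of each further list up to 3 called genes with the largest differences in mp53/Ras against bleo/Neo are named. Alternatives were other filters, array centring, the replicate block, the median of probe sets, left-out arrays, the groups compared alone, no trend and an offset of 16. Promoters came from RefSeq, with 1-based coordinates.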

Additional observations from a re-analysis of the deposited data

Results flagged for a closer look

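Of 145 groups of 10 arrays examined (29 members in 5 groups), 32 held an array whose gap to its neighbour exceeded Dixon's 95% critical value of 0.466 of the range. Chance marks about 1 in 20 such groups, and members measured on one array are not independent. Values are log2 intensities, each with that of the neighbouring array. Ras 10 was the lowest of its group for 10 members, Mvk (9.10, next 9.60), Idi1 (11.33, next 11.90), Fdps (12.14, next 12.69), Msmo1 (11.62, next 12.17), Nsdhl (9.86, next 10.58), Ebp (10.84, next 11.24), Sc5d (9.46, next 10.30), Scap (10.0, next 10.52), Stard4 (10.30, next 11.12) and Elovl6 (8.47, next 9.50). The array bleo/Neo 3 was the lowest for Fdps (11.03, next 12.03), Sqle (9.36, next 10.34), Cyp51 (9.50, next 10.83), Msmo1 (11.39, next 11.95), Nsdhl (9.64, next 10.23) and Sc5d (9.0, next 9.55).

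YAMC 3 was the lowest for Fdps (11.01, next 11.78), Tm7sf2 (6.21, next 7.32), Nsdhl (8.88, next 9.69) and Scd1 (8.13, next 9.06). YAMC 2 was the highest for Hmgcs1 (13.46, next 12.43), Lss (10.89, next 9.65) and Dhcr7 (10.90, next 10.34) and the lowest for Scap (9.56, next 10.45). The lowest mp53 array was mp53 8 for Fdps (10.96, next 12.10) and Srebf2 (8.89, next 9.73), and mp53 10 was the highest for Elovl6 (9.56, next 8.81). In mp53/Ras, replicate 4 was the lowest for Hmgcs1 (12.46, next 12.71) and the highest for Scap (10.54, next 10.29). Single arrays stood apart for Mvk on bleo/Neo 10 (lowest, 9.25, next 9.66), Cyp51 on Ras 9 (highest, 11.87, next 11.39) and Insig1 on Ras 8 (highest, 9.92, next 9.30).

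The difference between populations with and without RasV12 itself differed with mutant p53 for 7 of 29 members, by the non-additive term in limma on the log2 scale, a share of 24.1% beside the 23.9% of all genes that passed. It was 0.51 for Mvk (adjusted p = 0.0022), 0.79 for Tm7sf2 (adjusted p = 0.0371), 0.85 for Nsdhl (adjusted p = 0.000878), 0.54 for Ebp (adjusted p = 0.0048), 0.60 for Dhcr7 (adjusted p = 0.000313), 0.30 for Srebf1 (adjusted p = 0.0454) and −2.20 for Scd1 (adjusted p = 1.34e-08).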

How the results depend on the processing

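The count of members called was recomputed under 11 alternatives for 11 comparisons, and 110 of these 121 counts lay within 1.5 times of the reported one. In mp53 against YAMC the count was 2, and it became 5 with the replicate block (3 higher and 2 lower, where none had been higher), 6 without the 4 arrays nearer another group, 1 with the groups compared alone and 1 without YAMC 3 and bleo/Neo 3, an alternative chosen after seeing the data, as was leaving out mp53 10 and Ras 10. The share of all genes called there was 22.9%, and under these 4 alternatives it was 27.5%, 33.7%, 16.2% and 20.9% in that order. In mp53/Ras against Ras it went from 1 to 2 without the filter, 2 with centred arrays, 2 with the replicate block, 2 without YAMC 3 and bleo/Neo 3 and 3 with the groups compared alone. Without the 4 arrays the count went from 7 to 11 in mp53 against bleo/Neo and from 8 to 13 in bleo/Neo against YAMC. The share of all genes called went from 35.4% to 40.1% and from 37.4% to 40.7%. With the median of a gene's probe sets Sc5d turned to 0.47 in mp53 against bleo/Neo, −0.66 in bleo/Neo against YAMC and −0.50 in the non-additive term, where the brightest probe set had not passed. The cause was not tested in these cases. Replicate numbers were not taken to pair the arrays, because not every same-numbered pair correlated above 0.1, but the arrays shared part of their deviations by number, as a hint from the data and not the design. Of these pairs 67 of 100 exceeded 0.1 (median 0.186, lowest −0.515, and a median of −0.024 for other numbers), and 23 of 50 arrays correlated best with their own number. The block gave 24 members called in Ras against YAMC (20 without it) and 24 in mp53/Ras against YAMC (23 without it). With the block 47.7% and 61.3% of all genes were called in these comparisons, and without it 42.7% and 57.8%.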
